A study of Mus musculus with 8 samples.

Results

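Molecular chaperones help proteins reach and keep their folded state. In this series 73 of the 13661 named genes on the array were heat shock proteins, DnaJ co-chaperones, subunits of the CCT folding ring or BAG co-chaperones. They were chosen by gene symbol alone: symbols beginning with Hsp, Dnaj, Cct2 to Cct8 or Bag1 to Bag6, leaving out the mitochondrial chaperones Hspd1, Hspe1 and Hspa9 and the matrix proteoglycan Hspg2. These genes were represented by 89 probes, of which 78 had a value on all 8 arrays and 1 had none on any array. The genes with 1 probe numbered 61, and 12 had several.

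The study compared whole hearts after myocardial infarction with hearts of sham-operated mice, in a model of heart failure that follows ischaemia. All mice were C57Bl/6 and 8 to 10 weeks old by their labels. In 4 mice the surgeons ligated the descending left coronary branch for good, and in 4 sham controls the suture was passed but left untied. Both groups had ketamine and xylazine, ventilation and an opened chest, no genetic change is named for either, and the time from operation to harvest is not given in the sources used here. RNA of each heart, red-labelled, was hybridised to its own array of spotted oligonucleotides of 70 bases, with a green-labelled pool of adult mouse tissues that included heart and testis as the common reference. The labels describe RNA from each heart, so the spread below is that between hearts together with that of the arrays.

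In the heat shock system, HSP70 and HSP90 bind clients in cycles of ATP hydrolysis. DnaJ proteins bring clients to HSP70 and start hydrolysis, while HSP110 and BAG proteins exchange the nucleotide and release the client. Small heat shock proteins hold unfolding proteins without using ATP, and the CCT ring folds actin and tubulin. In heart muscle, small heat shock proteins and Bag3 are known for protecting the sarcomere, and mutations in BAG3 cause cardiomyopathy in humans.

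Every level below is the log2 of a spot's signal over the median signal of its block on the array, and a level of 0 marks the median spot. A fold change is the mean of the infarcted arrays minus the mean of the sham control arrays on this log2 scale. It was tested with limma over 18044 features, with Benjamini-Hochberg adjustment, and a gene was called changed at an adjusted p under 0.05. Signals of different probes are not compared as amounts of RNA.

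The deposited values hold 1 colour channel, and the red heart channel is assumed here. Defining markers of heart muscle had values far above the median spot, with Tnnc1 at 6.09 to 6.40 on the infarcted arrays and at 6.81 on the only sham control array with a value. Of 12 cardiomyocyte markers listed, 11 were on the array, Myh6 was not analysed here, and 4 could be tested. Of 6 markers of male germ cells, which a heart lacks, 5 lay above the median spot on all 8 arrays, Acrv1 being the exception. The protamine gene Prm2 had 2.48, 2.08, 2.89 and 2.40 on the infarcted arrays, against 4.46, 3.72, 4.42 and 4.01 on the sham control arrays. The reference pool included testis, and the source of the germ cell marker signal was not tested. The markers therefore do not settle which channel the values hold. If it were the green channel, the fold changes would not be differences between hearts. Values were present for 21916 to 23655 spots on the infarcted arrays and for 19704 to 24819 of 33600 on the sham control arrays.

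No chaperone gene with enough values passed the threshold. Of the 73 genes, 71 had a value on at least 3 arrays in each group and were tested, and 0 passed, where 0.549% of all features tested did. Among all features 0.0554% were higher and 0.493% lower in infarcted hearts. By an unadjusted p under 0.05, 5 of the 71 genes stood out, or 7.04%, against 12.3% of all features. Fold changes were positive for 26 genes and negative for 45, with a median of -0.08, the same as the median over all features, which was also -0.08. They ran from -0.85 to 0.67, and 62 of the 71 lay within 0.5 of 0. The groups did not overlap for 3 of 71 genes, or 4.23%, against 8.89% of all features.

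After quantile normalization, which gives all arrays the same distribution of signals, again 0 of 71 chaperone genes passed, where 0.177% of all features did, 0.0277% higher and 0.15% lower. The median then was 0.05, with 41 positive and 30 negative, and the median over all features was 0.00. An unadjusted p under 0.05 was found for 5 genes, again 7.04%, against 9.8% of all features. The sign of the fold change differed between the scalings for 17 genes.

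The missing calls do not show that the genes were equal. The median standard error (SE) of the 71 fold changes was 0.28. The 95% interval lay within 1 log2 unit of 0, a 2-fold change, for 50 genes on centred arrays and for 44 genes after quantile normalization.

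**Figure D1:**
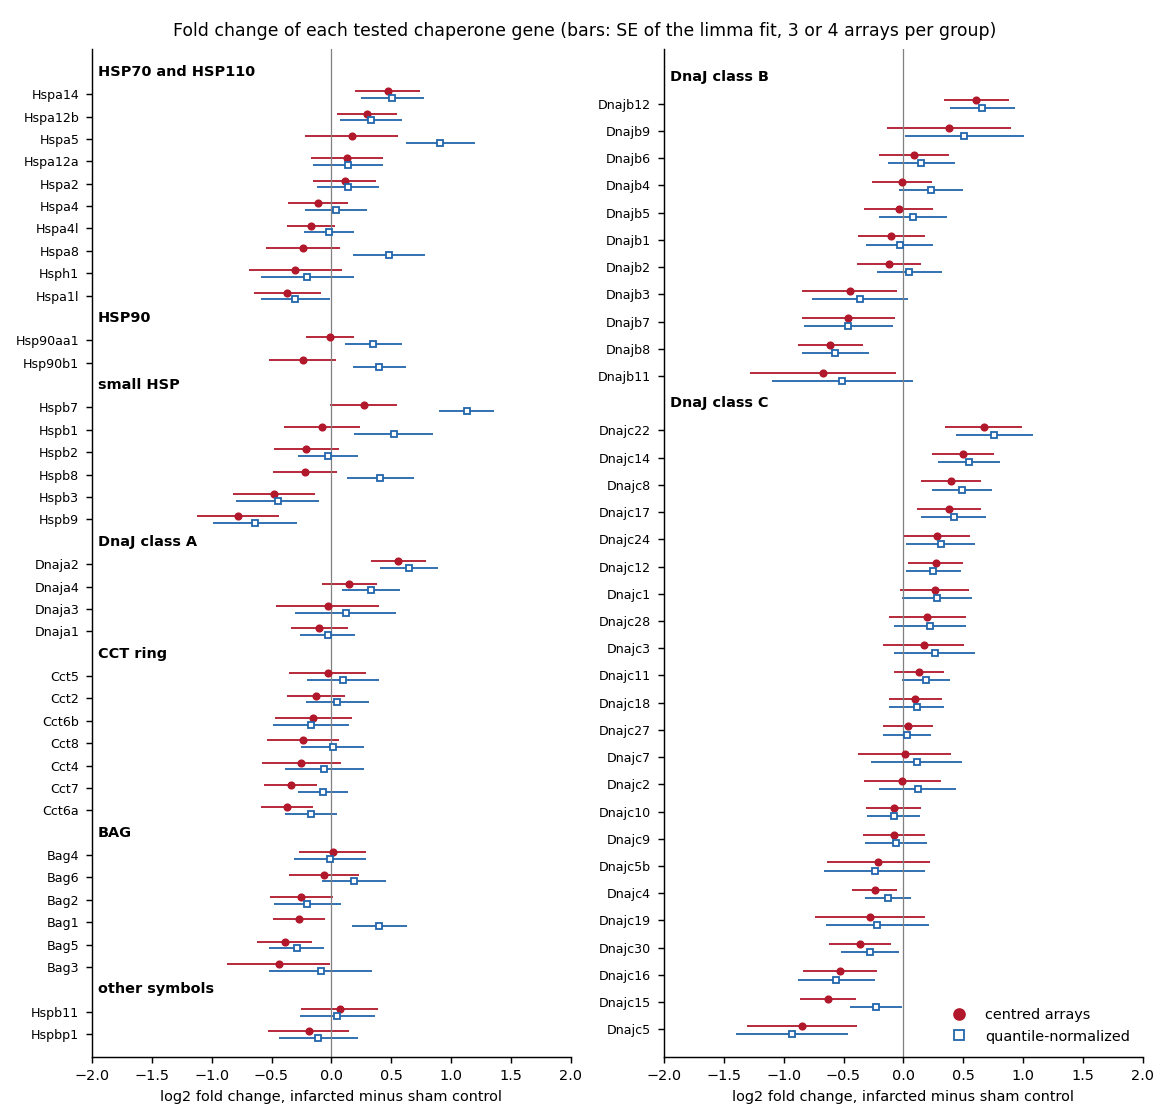
Log2 fold change (infarcted minus sham control, horizontal axis) of each of the 71 tested chaperone genes, grouped by family, on centred arrays (filled circles) and after quantile normalization (open squares); bars are the SE of the limma fit. All circles lie between -0.85 and 0.67, and the squares of Hspa5, Hspa8, Hspb7, Hspb1 and Bag1 lie to the right of their circles.

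The control regions of 4 members are shown because they hold the letters of textbook elements for the response to misfolded proteins. The heat shock element, bound by Hsf1, was searched as 3 units of GAA and its complement TTC in alternation, each 2 bases from the next. The endoplasmic reticulum (ER) stress element was searched as CCAAT and CCACG with 9 bases between them. Both strands were searched and matches could overlap. The search used the 250 bases before each RefSeq start of assembly GRCm38.p6, and 60 of the 73 genes were matched there. Capitals mark the match, and each stretch reads 5′ to 3′ on the gene's strand.
Hspa5, chr2:34772000-34772068, plus strand: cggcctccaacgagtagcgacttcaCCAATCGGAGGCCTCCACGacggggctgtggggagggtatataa
Dnajc3, chr14:118937802-118937870, plus strand: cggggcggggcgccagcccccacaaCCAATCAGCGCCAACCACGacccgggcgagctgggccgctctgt
Hsp90b1, chr10:86705508-86705681, minus strand: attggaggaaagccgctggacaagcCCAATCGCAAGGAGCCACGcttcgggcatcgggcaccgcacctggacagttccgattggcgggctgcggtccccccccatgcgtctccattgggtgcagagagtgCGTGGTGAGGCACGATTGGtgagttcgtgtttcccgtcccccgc
Dnajb6, chr5:29735827-29735889, plus strand: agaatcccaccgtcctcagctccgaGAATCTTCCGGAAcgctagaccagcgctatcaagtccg
The ER stress element was found in 3 of the 60 genes, or 5.0%, against 0.13% of the 27025 genes with a promoter in the table. All 3 encode chaperones of the ER lumen, and Hsp90b1 held 2 matches. The strict heat shock element was found in 1 of 60 genes, Dnajb6, or 1.67%, against 0.514% of all genes. A match is a run of letters, not a measured binding site, and a window without a match says nothing about the factor.

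The ATPases of the HSP70 family and the related HSP110 proteins gave 10 tested genes, 5 with a positive and 5 with a negative fold change, and a median of 0.00. After quantile normalization 7 were positive and 3 negative, with a median of 0.14. Hspa8, the constitutive HSP70 of the cytosol, had 6.13, 6.14, 6.11 and 6.99 on the infarcted arrays, against 6.84, 6.25, 7.14 and 6.10 on the sham control arrays. In scanner units recovered from the deposited values, its spot read 58716 and 58860 on sham control replicates 1 and 3. The highest signal on any array was 65466, and a ceiling on its values was not tested. The groups overlapped, and infarcted replicate 4 stood apart from the other infarcted arrays. Its fold change was -0.24 ± 0.31 (SE, limma adjusted p = 0.822), with a 95% interval of -0.94 to 0.46, and 0.48 ± 0.30 after quantile normalization (adjusted p = 0.645).

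Hspa5, the HSP70 of the ER lumen also called BiP, had 4.32, 4.82, 4.87 and 5.22 in infarcted hearts, against 4.86, 5.52, 4.58 and 3.61 in sham control hearts. The sham control values spanned the infarcted ones. The fold change was 0.17 ± 0.39 (SE, adjusted p = 0.906), and 0.91 ± 0.29 after quantile normalization (adjusted p = 0.332).

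Hspa14, a ribosome-linked HSP70, had 0.94, 0.83, 0.82 and 0.20 on the infarcted arrays, against 0.06, 0.58, 0.47 and -0.20 on the sham control arrays. Its fold change of 0.47 ± 0.27 had the smallest p of the family (adjusted p = 0.527). The endothelial Hspa12b stood at 0.30 ± 0.25, with a 95% interval of -0.26 to 0.86. Hspa1l and Hspa2, both known from the testis, stood at -0.37 ± 0.28 and 0.11 ± 0.26. Of the HSP110 proteins, which recharge HSP70 with ATP, Hspa4 stood at -0.11 ± 0.25 and Hsph1 at -0.30 ± 0.39 (adjusted p = 0.897 and 0.822). Hsph1 had 2.24, 2.04, 1.47 and 0.45 on the infarcted arrays, against 2.27, 1.49, 1.98 and 1.65 on the sham control arrays, and infarcted replicate 4 was the lowest of the 8.

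HSP90 was measured by 2 genes. Hsp90aa1, the stress-inducible cytosolic form, had 3.59, 3.37, 3.41 and 3.63 in infarcted hearts, against 3.54, 3.25, 3.54 and 3.70 in sham control hearts. These levels covered nearly the same range in both groups. The fold change of -0.01 ± 0.20 (SE, adjusted p = 0.993) had a 95% interval of -0.46 to 0.45, and quantile normalization gave 0.35 ± 0.24. Hsp90b1, the HSP90 of the ER lumen known as Grp94, had 3.92, 4.17, 4.34 and 4.63 in infarcted hearts, against 4.65, 5.05, 4.31 and 4.01 in sham control hearts. It stood at -0.24 ± 0.28 on centred arrays and at 0.40 ± 0.22 after quantile normalization (adjusted p = 0.793 and 0.591), so its sign turned with the scaling. Hspa1a, Hspa1b, Hsp90ab1 and Hspb6 were not analysed here.

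Small heat shock proteins gave 6 tested genes, 5 with a negative and 1 with a positive fold change, and a median of -0.22 that turned to 0.19 after quantile normalization. The positive one was Hspb7, a heart-enriched member that binds filamin at the sarcomere. It had 6.10, 6.09, 6.03 and 6.08 on the infarcted arrays, against 5.32, 6.28, 6.24 and 5.38 on the sham control arrays. The infarcted values lay close together inside the range of the sham control values. The fold change was 0.27 ± 0.28 (SE, adjusted p = 0.758) on centred arrays.

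The values of Hspb7 depended on the scaling. After quantile normalization its levels were 6.46, 6.43, 6.63 and 6.40 on the infarcted arrays, against 4.87, 5.52, 5.68 and 5.34 on the sham control arrays, and the groups no longer overlapped. The share of all features without overlap on this scale was not counted. The fold change was then 1.13 ± 0.23, with a 95% interval of 0.61 to 1.65, and did not pass (adjusted p = 0.129). Cyclic loess gave 1.24 ± 0.25 (adjusted p = 0.0823).

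Hspb1, the small heat shock protein HSP25 of the mouse, had 4.67, 4.36, 4.35 and 3.75 in infarcted hearts, against 3.74, 5.07, 4.43 and 4.23 in sham control hearts. It stood at -0.08 ± 0.32 and, after quantile normalization, at 0.52 ± 0.33. Hspb8, the partner of Bag3 in clearing misfolded proteins, stood at -0.22 ± 0.27 and 0.41 ± 0.28 on the same scales. Hspb2 and Hspb3, muscle proteins that bind each other, stood at -0.21 ± 0.27 and -0.48 ± 0.34 on centred arrays. Hspb9, known from the testis, had 1.36, 1.80, 2.37 and 2.13 in infarcted hearts, against 3.27, 1.86, 2.94 and 2.71 in sham control hearts. Its fold change of -0.78 ± 0.34 (adjusted p = 0.398) had an interval of -1.55 to -0.01.

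The scaling dependence was shared by the features with bright spots. Over the 1896 features whose mean level exceeded 3, the median fold change was -0.52 on centred arrays and 0.03 after quantile normalization. The 11 chaperone genes above that level were Hspa8, Hspb7, Hspa5, Bag1, Hspb8, Hsp90b1, Hspb1, Dnajc15, Hsp90aa1, Bag3 and Cct7. Their median was -0.24 on centred arrays, with 2 of 11 positive, and 0.40 after quantile normalization, with 8 of 11 positive. At the 99th percentile, infarcted arrays had log2 signals of 5.05 to 5.24 and sham control arrays of 5.65 to 6.31, and the part of this spread in the chaperone values was not tested.

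**Figure D2:**
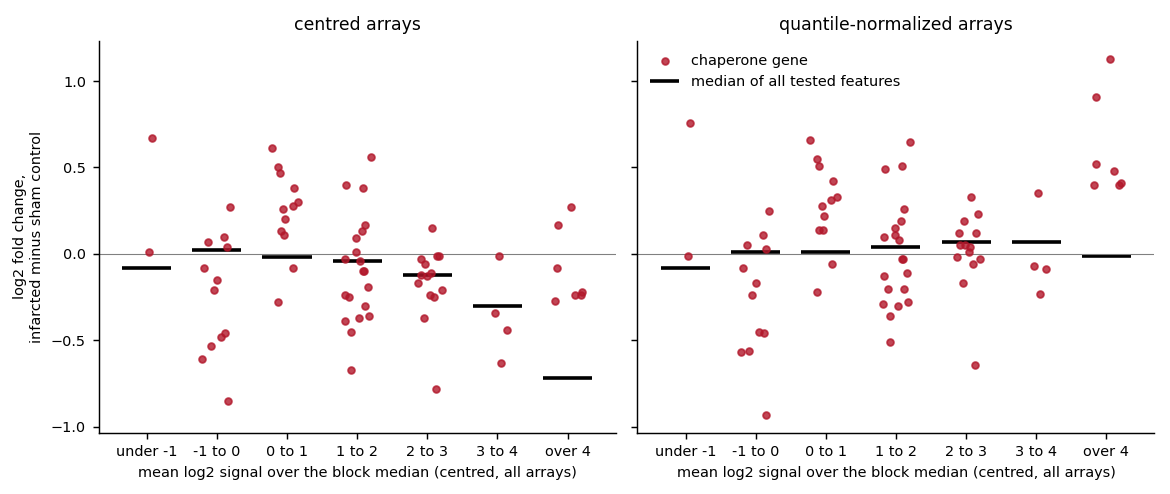
Log2 fold change (infarcted minus sham control, vertical axis) of the 71 tested chaperone genes (points, spread sideways for legibility) by mean log2 signal over the block median (horizontal axis), grouped in steps of level, with black bars for the median of all tested features in each step; left, centred arrays, right, quantile-normalized arrays. At a level over 4 the bar of all features stands at -0.72 on centred arrays and at -0.01 after quantile normalization, and the points of the 7 chaperone genes there lie above it on both scales. At a level of 3 to 4 the median of the 4 chaperone genes lies below the bar. It is -0.39 against -0.30 on centred arrays and -0.08 against 0.07 after quantile normalization.

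BAG proteins gave 6 tested genes, 5 with a negative and 1 with a positive fold change, and a median of -0.26. After quantile normalization 4 were negative and 2 positive, with a median of -0.05. Bag3, which links HSP70 to small heat shock proteins and selective autophagy, had 3.55, 3.54, 2.66 and 2.0 on the infarcted arrays, against 4.06, 3.56, 3.44 and 2.47 on the sham control arrays. Both groups spread widely and overlapped. Its fold change was -0.44 ± 0.43 (SE, adjusted p = 0.744), with an interval of -1.41 to 0.52, and -0.09 ± 0.43 after quantile normalization. Bag1, which binds HSP70 and Bcl2, stood at -0.27 ± 0.22 on centred arrays and at 0.40 ± 0.23 after quantile normalization. Bag5, an exchange factor of HSP70, stood at -0.39 ± 0.23 (adjusted p = 0.556).

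DnaJ proteins of class A, the full-length partners of HSP70, gave 4 tested genes. Dnaja2 had 2.08, 1.60, 1.90 and 1.79 in infarcted hearts, against 1.55, 0.89, 1.21 and 1.47 in sham control hearts. Every infarcted value was above every sham control value, which held for 2.62% of all features. The fold change of 0.56 ± 0.23 (SE, interval 0.05 to 1.08) did not pass (adjusted p = 0.359), and quantile normalization gave 0.65 ± 0.24 (adjusted p = 0.425). It was 0.43 to 0.65 with any 1 array left out. Dnaja1 and Dnaja4 stood at -0.10 ± 0.24 and 0.15 ± 0.23.

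Class B gave 11 tested genes, 3 positive and 8 negative, with a median of -0.10. After quantile normalization 6 were positive and 5 negative, and the median turned to 0.05. Dnajb1, the classical heat-inducible partner of HSP70 known as HSP40, had 0.82, 1.14, 1.73 and 1.63 on the infarcted arrays, against 1.03, 1.42, 1.85 and 1.40 on the sham control arrays, and its fold change was -0.10 ± 0.28 (adjusted p = 0.928). Dnajb4 and Dnajb5, both relatives of Dnajb1, stood at -0.01 ± 0.25 and -0.04 ± 0.29. Dnajb6, which suppresses protein aggregation and held the heat shock element above, stood at 0.09 ± 0.29 over its 2 probes. Dnajb12, anchored in the ER membrane, had 1.56, 1.23, 1.14 and 0.59 in infarcted hearts, against 0.94, 0.29, 0.50 and 0.34 in sham control hearts. Its values overlapped, and the fold change of 0.61 ± 0.27 (interval 0.02 to 1.21) did not pass (adjusted p = 0.394). Dnajb13 had values on 1 infarcted and 2 sham control arrays and was not tested.

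Class C gave 23 tested genes, 13 positive and 10 negative, with a median of 0.04. After quantile normalization 14 were positive and 9 negative, with a median of 0.11. Dnajc15, a protein of the mitochondrial inner membrane linked to import and respiration, had 3.46, 3.39, 2.96 and 3.63 on the infarcted arrays, against 3.98, 3.94, 4.22 and 3.81 on the sham control arrays. Every infarcted value was below every sham control value, as for 6.27% of all features. Its fold change of -0.63 ± 0.23 (SE, interval -1.13 to -0.13) had the smallest p of all tested members and did not pass (adjusted p = 0.285). After quantile normalization it was -0.23 ± 0.22 (adjusted p = 0.778) and the groups overlapped.

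Dnajc14, of the ER membrane, stood at 0.50 ± 0.26 and Dnajc22 at 0.67 ± 0.32 (adjusted p = 0.489 and 0.454). Dnajc22 had values on 3 sham control arrays, and all its levels as a gene lay below the median spot. Its 1 tested probe stood at 0.95 ± 0.60, and its other probe had values on only 2 sham control arrays. Dnajc4 was the third member whose groups did not overlap, at -0.24 ± 0.19. Dnajc4, Dnajc5, Dnajc10, Dnajc19 and Cct3 were picked out after their values were seen. For genes with several probes the mean over probes moved with the probes that had a value on an array. Dnajc5, the cysteine string protein of secretory vesicles, stood at -0.85 ± 0.46 as a gene and at -0.15 ± 0.55 for the probe with a value on all arrays. Dnajc19, of the mitochondrial import motor, stood at -0.28 ± 0.46 as a gene, while its 2 tested probes stood at -0.57 ± 0.24 and 0.07 ± 0.24. When each probe was tested on its own, 0.764% of all probes and 0 probes of these genes passed. For Dnajb8, known from the testis, the 2 probes stood at -0.21 ± 0.41 and -0.56 ± 0.33, against -0.61 ± 0.27 for the gene. Hspb11, a part of the intraflagellar transport complex, and Hspbp1, an exchange factor of HSP70, stood at 0.07 ± 0.32 and -0.19 ± 0.34. The 3 probes of Hspb11 stood at 0.43 ± 0.40, 0.13 ± 0.24 and 0.12 ± 0.43, and the first had no value on sham control replicate 4. Dnajc10, of the ER lumen, stood at -0.08 ± 0.23 as a gene, while its 2 tested probes stood at 0.33 ± 0.26 and 0.51 ± 0.37.

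In the CCT ring, whose different subunits build a folding chamber, 1 subunit had values far apart between the groups. Cct3 had levels of -1.40, -1.46, -1.10 and -0.89 on the infarcted arrays, against 3.62 and 2.58 on sham control replicates 1 and 4, and no value on sham control replicates 2 and 3. In scanner units recovered from the deposited values, its spot read 200, 191, 342 and 203 on the infarcted arrays, against 6179 and 3101 on those sham control arrays. With 2 sham control values it missed the requirement of 3. In the fit that asked for a value on at least 2 arrays of each group, its fold change was -4.31 ± 0.37 (SE, adjusted p = 0.00823 over 19936 features). All 4 infarcted values lay below the median spot, and whether they stand above background is not known from the deposited values. The size of this log2 fold change is therefore uncertain, and its SE does not cover that limit. No other chaperone gene passed there, where 0.532% of all features did and 0.451% were lower. Quantile normalization gave -4.28 ± 0.32 in the same setting, an alternative added after seeing the data (adjusted p = 0.00544; 0.201% of all features passed). The call rests on 1 probe and 2 sham control arrays, and the part played by that spot or by the missing values was not tested.

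The fold changes of the other CCT subunits lay within 0.37 of 0. All 7 tested genes had a negative fold change on centred arrays, with a median of -0.24, and after quantile normalization 3 were positive and 4 negative, with a median of -0.06. Cct6a had 2.71, 2.23, 2.68 and 2.38 in infarcted hearts, against 3.02, 2.85, 3.01 and 2.62 in sham control hearts, and a fold change of -0.37 ± 0.22 (SE, adjusted p = 0.546, interval -0.86 to 0.12). Cct7 stood at -0.34 ± 0.22, Cct8 at -0.24 ± 0.30, Cct2 at -0.13 ± 0.24 and Cct5 at -0.03 ± 0.32. Tcp1, the subunit that the symbol rule leaves out, stood at 0.06 ± 0.39 on centred arrays (adjusted p = 0.975) and at 0.70 ± 0.31 after quantile normalization (adjusted p = 0.494). The difference between Cct3 and the other subunits was not tested.

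**Figure D3:**
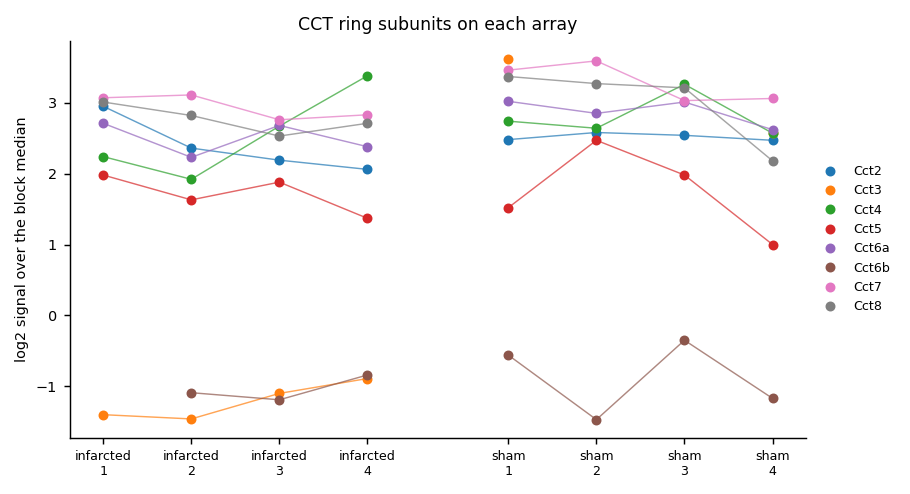
Log2 signal over the block median (vertical axis) of the 8 CCT genes chosen by symbol on each of the 4 infarcted and 4 sham control arrays; each point is 1 array, gaps are missing values, and lines only help the eye follow a gene, since arrays of a group have no order. Cct3 lies between -1.46 and -0.89 on the infarcted arrays, against 2.58 and 3.62 on the 2 sham control arrays with a value, and the other subunits overlap between the groups.

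Among the 4 infarcted hearts, some chaperones were high or low on the same arrays. Among the members, 7 act in the ER lumen: Hspa5, Hsp90b1, Dnajb9, Dnajb11, Dnajc3, Dnajc10 and Dnajc1, a membrane protein with its J domain in the lumen. This set was drawn up after the values were seen. Infarcted replicate 4 was the highest infarcted array for 6 of the 7, and infarcted replicate 1 the lowest for 5 of 7. Without Dnajc1 both counts were 5 of 6. Over the 69 chaperone genes with complete values, replicate 4 was the highest in 30.4% and replicate 1 the lowest in 20.3%, close to the 32.9% and 19.5% of all features. Dnajb11, a BiP partner, had -0.32, 2.25, 2.21 and 2.49 on the infarcted arrays, against 2.34, 3.12, 2.35 and 1.51 on the sham control arrays, and its fold change of -0.67 ± 0.61 was -0.01 without infarcted replicate 1. Dnajb9, a BiP partner induced by misfolded proteins, had 1.46, 2.06, 1.54 and 2.91 in infarcted hearts, against 1.60, 2.35, 2.38 and 0.13 in sham control hearts. Dnajc3 stood at 0.17 ± 0.34 and Dnajb9 at 0.38 ± 0.52 between the groups (adjusted p = 0.888 and 0.834).

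A second set, also drawn up after the values were seen, ran the other way. Bag3, Hsph1, Hspb1, Hspb2 and Hspb8 were each highest on infarcted replicate 1 and lowest on infarcted replicate 4, in 5 of 5 genes on centred arrays and in 5 of 5 after quantile normalization. The set was picked for this pattern, and Hspb3 and Hspb9, both lowest on infarcted replicate 1 at -1.24 and 1.36, are not in it. Nor is the pattern particular to the set. Members of other families, among them Hspa14, Hspa12b, Dnajb5, Dnajb12 and Cct2, were also highest on infarcted replicate 1 and lowest on infarcted replicate 4. On centred arrays replicate 1 was the highest infarcted array in 34.8% of the 69 chaperone genes and in 32.7% of all features, and replicate 4 the lowest in 23.2% and 24.3%. For 12 other ER genes outside the symbol rule, among them Calr, Pdia4 and Sdf2l1, replicate 1 was the lowest in 7 and replicate 4 the highest in 3. All of these differences lie among single hearts of 1 group and carry no test.

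**Figure D4:**
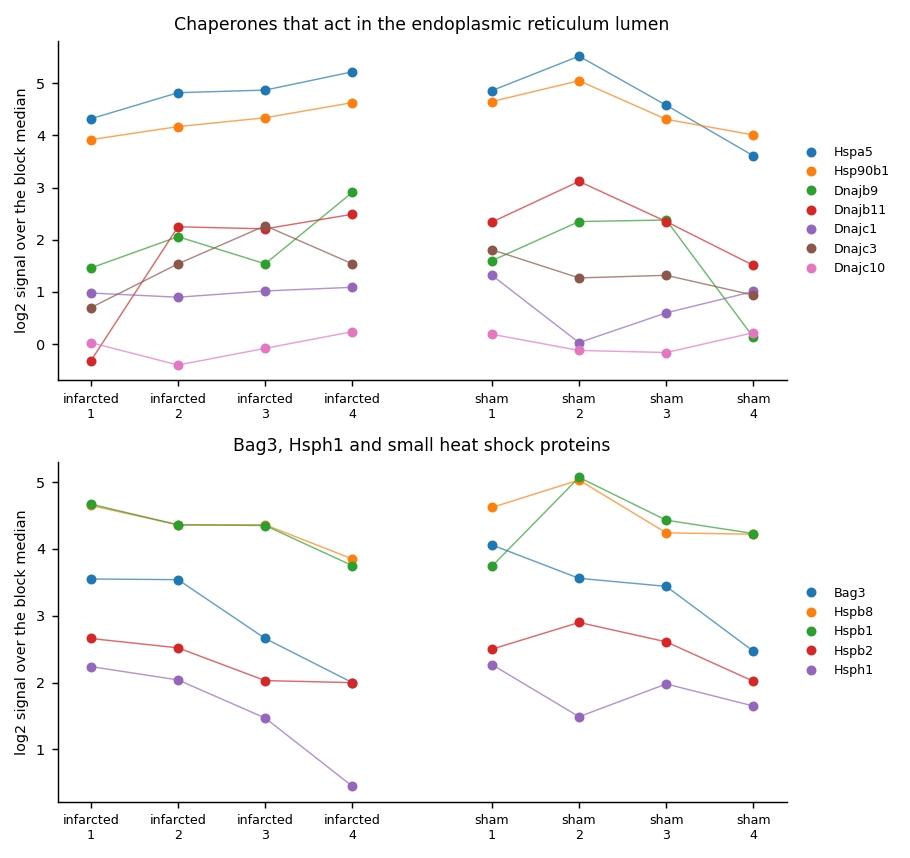
Log2 signal over the block median (vertical axis) on each infarcted and sham control array for 7 chaperones that act in the ER lumen (top) and for Bag3, Hsph1 and 3 small heat shock proteins (bottom); each point is 1 array and lines only help the eye follow a gene. On infarcted replicate 4 Hspa5 stands at 5.22 and Dnajb9 at 2.91, the highest of their infarcted values, and Bag3 at 2.0 and Hsph1 at 0.45, the lowest of theirs.

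Chaperones known from the testis had mostly negative fold changes, as had the germ cell markers, and 0 of these chaperones passed. Of 9 such members, listed after the values were seen, 8 were tested. On centred arrays 7 had a negative and 1 a positive fold change, where 57.5% of all features were negative. The median was -0.41 on centred arrays and -0.33 after quantile normalization. Dnajb7 had -1.39, -1.43, -1.02 and -0.64 on the infarcted arrays, against -0.05, -1.76, -0.06 and -0.79 on the sham control arrays, and stood at -0.46 ± 0.39 (SE, adjusted p = 0.703). Over the 6 germ cell markers listed, all tested, 6 fold changes were negative, from -1.69 to -1.14, with a median of -1.28 on centred arrays and -1.05 after quantile normalization. Their mean level per array was 1.93 to 2.20 on the infarcted arrays and 2.34 to 4.07 on the sham control arrays. Prm2 alone passed, at -1.69 ± 0.26 (adjusted p = 0.0314), and it did not after quantile normalization (-1.34, adjusted p = 0.134). The part of this difference in the values of the testis chaperones was not tested.

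**Figure D5:**
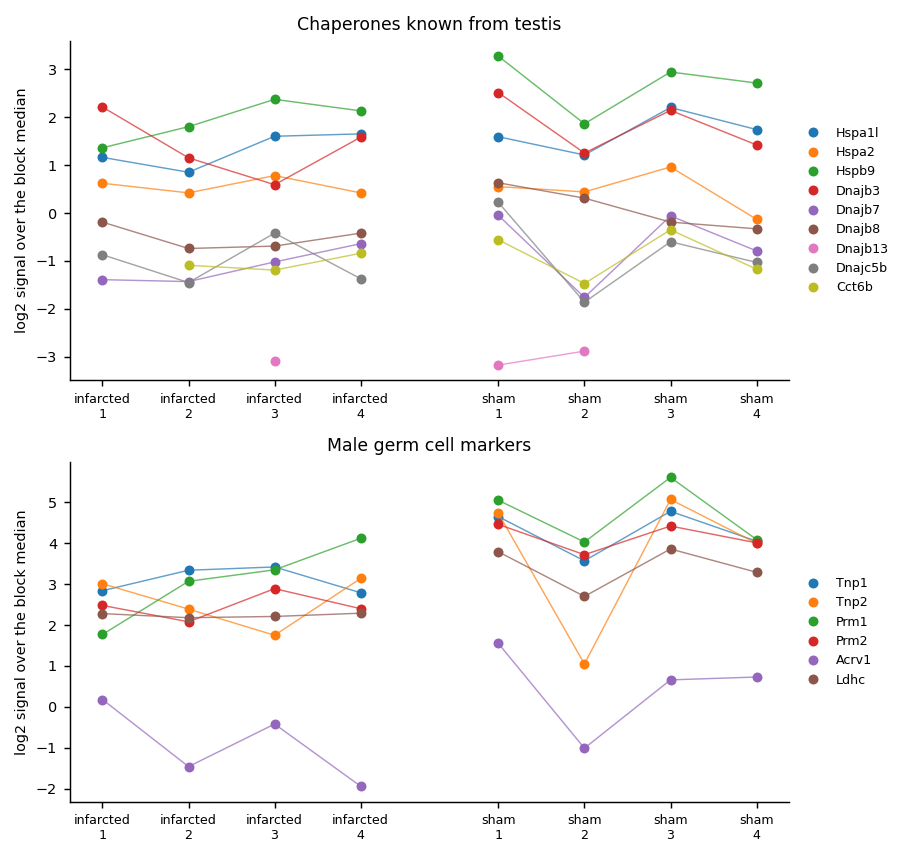
Log2 signal over the block median (vertical axis) on each infarcted and sham control array for 9 chaperones known from the testis (top) and for 6 markers of male germ cells (bottom); each point is 1 array, gaps are missing values, and lines only help the eye follow a gene. Prm2 lies at 2.08 to 2.89 on the infarcted arrays and at 3.72 to 4.46 on the sham control arrays, and sham control replicate 2 has the lowest sham control value for each of the 6 markers.

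Macrophage markers had mostly positive fold changes. Of 9 tested, 8 had a positive fold change, with a median of 0.69, and their mean level per array was 1.06 to 1.65 on the infarcted arrays and 0.33 to 0.86 on the sham control arrays, although 0 passed singly. In whole hearts fewer cells of a type and less RNA per cell cannot be told apart, and the part of cell makeup in the chaperone values was not tested. The 4 cardiomyocyte markers tested, Mybpc3, Pln, Ryr2 and Ttn, had a median of 0.07 on centred arrays and 0.53 after quantile normalization. Their fold changes ran from -1.11 to 0.27 on centred arrays. Myl2, Tnnt2, Tnni3, Tnnc1 and Actc1 had values on only 1 or 2 sham control arrays and were not tested. On centred arrays the mean of each was lower in infarcted hearts, as for Myl2 at 6.16 against 7.10 and Actc1 at 6.26 against 6.64. After quantile normalization Tnnt2 and Actc1 were higher there, at 6.46 against 6.33 and 6.62 against 6.56. Fibroblast markers ran from -1.27 for Col1a1 to 1.76 for Postn, with a median of -0.12, and endothelial markers from -0.51 to 0.63, with a median of -0.06. None of these passed.

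Genes of protein folding and of the heat shock and unfolded protein responses outside the symbol rule were read from the same fit. Of 50 listed, 40 were on the array and 38 were tested, 18 positive and 20 negative, with a median of -0.04, and 0 passed. After quantile normalization 26 were positive and 12 negative, with a median of 0.25, and again 0 passed. Hsbp1, which binds and restrains Hsf1, had 3.46, 3.58, 3.43 and 3.68 on the infarcted arrays, against 4.31, 4.18, 4.19 and 3.95 on the sham control arrays. Its groups did not overlap, and the fold change was -0.62 ± 0.20 (SE, adjusted p = 0.225) on centred arrays and -0.16 after quantile normalization (adjusted p = 0.819). Ahsa1, which activates the HSP90 ATPase, stood at -0.52 ± 0.23, and Pfdn1, of the prefoldin complex that hands clients to CCT, at -0.44 ± 0.21. Quantile normalization gave -0.28 ± 0.24 for Ahsa1 and -0.13 ± 0.21 for Pfdn1. Ero1a, the oxidase that drives disulphide formation in the ER, stood at 0.41 ± 0.19 with groups that did not overlap (adjusted p = 0.445). Of the 38 tested genes, 1 was higher and 2 were lower without overlap on centred arrays, Ppid being the other lower gene. Among all features 2.62% were higher and 6.27% lower without overlap. Cryab, the small heat shock protein alpha B-crystallin, had 4.14, 4.09, 4.13 and 3.65 in infarcted hearts, against 3.20, 5.22, 5.09 and 4.69 in sham control hearts, and stood at -0.55 ± 0.42 (adjusted p = 0.658). Quantile normalization gave -0.06 for Cryab and cyclic loess 0.04. Its 2 tested probes stood on their own, on centred arrays, at -1.51 (adjusted p = 0.0597) and -0.54 (adjusted p = 0.321). The values after quantile normalization and cyclic loess are for the mean over probes only, and single probes were not fitted on those scales. Hsf1 was not analysed here.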

How the data were processed

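For 33600 spots on each of 8 arrays the deposited values are on a log2 scale. Image software, background correction and spot filters: not given in the sources used here. In each of 48 blocks of 700 spots, 2 to the power of the value times 1 constant gave whole numbers (tolerance 0.001) on every array, from 42 to 65466, and each block median was 0. The deposited log2 values are therefore read as 1 channel's signal over its block median, an inference from the values. Probes were named through the platform annotation: 18179 had 1 symbol, 87 several and 15334 none here.

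Arrays were centred on their median, and the probes of a gene were averaged per array. Features with 3 values per group were fitted by limma 3.58.1 (lmFit, then eBayes) under R 4.3.3, and the procedure was tested on simulated data. Levels are given per array, and SE is that of the fit. Precision is limited by the 4 arrays per group. The counts of changed genes, the chaperone median and the genes named by the rule below were recomputed under 19 other settings. Markers and the other named genes were recomputed with quantile normalization and cyclic loess only. Promoter sequences come from RefSeq, GRCm38.p6.

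The members, lists and tests were chosen with earlier results of these data known. Named were members past the threshold, the 3 with the smallest p in each family, the 3 with the highest sham control levels, members fixed by name, and members whose sign turned with quantile normalization by over 0.5. Of the folding genes outside the rule, those past the threshold, the 4 with the smallest p, Tcp1, Cryab and Hsf1 were named. Cct3 and the members the report says so of were chosen after their values were seen.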

Additional observations from a re-analysis of the deposited data

Results flagged for a closer look

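Of 82 groups of 4 values checked for the named chaperone genes, 5 held 1 array whose gap to the nearest other value was too large a part of the group's range by Dixon's 95% limit, and chance flags about 1 group in 20. Among the infarcted arrays, replicate 4 gave 6.99 for Hspa8, where the others lay between 6.11 and 6.14. The same array gave 0.20 for Hspa14, against 0.82 to 0.94 on the others. Infarcted replicate 3 gave 0.98 for Dnaja1, against 1.42 to 1.48. Among the sham control arrays, replicate 4 gave 2.18 for Cct8, where the others lay between 3.21 and 3.37, and replicate 1 gave 2.06 for Hspa4, against 2.55 to 2.61.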

How the results depend on the processing

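Over 20 alternatives, 1 of them added after seeing the data, the 41 named and tested chaperone genes gave 818 values, of which 0 passed, and 79 values in 23 genes had the sign opposite to that reported, 12 of them after quantile normalization. The number of chaperone genes past the threshold was 0, with these exceptions. It was 1, Cct3, with 2 values per group (also with quantile normalization) and without sham control replicate 2 or 3. Leaving out 1 array thus gave 0 to 1. A group left with 3 arrays needed only 2 values in these fits. Cct3 had no value on sham control replicates 2 and 3, so leaving out either changed the requirement and not its values. The median fold change of the chaperones ran from -0.18, without the 2 sham control arrays with the fewest values, to 0.06 with cyclic loess, and was negative in 17 of 20. The number of features changed, 99 at first, was 32 with quantile normalization, 40 with that and 2 values per group, 157 for each probe on its own, 506 with array weights and 1120 without the 2 sham control arrays with the fewest values. Leaving out 1 array gave 3 features (without infarcted replicate 3) to 660 (without sham control replicate 4), and each of the 8 arrays moved the number by over 1.5 times. With the replicate number as a block 1 feature and 0 chaperone genes passed. Same-numbered arrays correlated at 0.02, 0.31, -0.08 and -0.19 in their deviations from the group means. The labels do not say whether the numbers pair the hearts, and so few correlations cannot settle it. Of the other folding genes, 0 passed, and leaving out 1 array gave 0 to 1, the 1 being Vcp without sham control replicate 4 (-1.13 ± 0.26, limma adjusted p = 0.0482). With all 8 arrays Vcp stood at -0.71 ± 0.40, and at -0.18 ± 0.34 after quantile normalization (limma adjusted p = 0.533 and 0.898). The cause of these shifts was not tested. Spots near the median or without a value limit what can be seen in dim genes such as Dnajb13. Values were also missing for bright genes, since the heart muscle markers Myl3 and Atp2a2 had none on any sham control array.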
